A study of Mus musculus with 20 samples.

Results

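The genes described here encode the proteins of the otoconia and of the gel in which they lie, the otolithic membrane of the utricle. They are 10 genes named for their known place in these structures: *Oc90*, *Otol1*, *Otog*, *Otogl*, *Otoa*, *Tecta*, *Tectb*, *Ceacam16*, *Sparc* and *Sparcl1*. All 10 were found by symbol among the 25655 genes of the deposited count tables. RNA was taken from the utricle of female C57BL/6J mice that were operated on at 8 weeks of age, in 4 groups of 5 libraries. The sham + v mice kept their ovaries and carried a vehicle pellet. Those of OVX + v were ovariectomized and carried a vehicle pellet. Those of OVX + E2 were ovariectomized and carried a pellet with 50 µg of estradiol for release over 60 days. Those of OVX + RAL were ovariectomized and carried a pellet with 2.4 mg of raloxifene for release over 60 days. The mice were killed before these 60 days had passed, so that the amounts are those of the pellets and not the doses received. Estradiol and raloxifene, a selective estrogen receptor modulator, were given only to ovariectomized mice, so that the groups hold no treated mice with ovaries. The labels do not say whether a library held 1 animal or several, and the p-values measure the spread between libraries.

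Otoconia are crystals of calcium carbonate that grow around an organic core and load the gel above the hair cells, so that the hair bundles bend when the head tilts or accelerates. Otoconin-90 (*Oc90*), which binds calcium, and the collagen-like otolin-1 (*Otol1*) form the core of the crystals. Otogelin (*Otog*), otogelin-like (*Otogl*) and the tectorins (*Tecta* and *Tectb*) are fibrous proteins of the acellular gels of the inner ear, *Ceacam16* encodes a partner of the tectorins in the tectorial membrane of the cochlea, and otoancorin (*Otoa*) holds such gels to the surface of the epithelium. SPARC (*Sparc*, osteonectin) and SPARC-like 1 (*Sparcl1*) bind calcium and collagen and are made by many tissues. The crystals are laid down mainly before and shortly after birth and are kept in the adult. The question put to these libraries was whether the transcripts of these proteins differed with the loss of the ovaries or with either treatment.

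The promoters are shown for the members that held GGTCA, a short element within the motif of the estrogen receptor, since estradiol and raloxifene both bind this receptor. Whether they act through it in the utricle was not tested. The RefSeq promoter table (GRCm38.p6, a build other than that of the counts) held 7 windows for 6 of the 10 members, *Otol1*, *Otog*, *Otoa*, *Tecta* (2 start sites), *Sparc* and *Tectb*. The 250 bases before each start site were used. The full palindrome of the receptor, GGTCA and TGACC with any 3 bases between, was found in 0 of these 7 windows and in 0.0639% of all 32851 windows of this length, and the longer element AGGTCA in 0 of 7 and in 14.02% of all windows, on either strand. The short element GGTCA, which both longer motifs contain, was found once in 4 of 7 windows and in 35.2% of all windows. The 4 windows follow 5′ to 3′ on the strand of the gene, with the element (GGTCA, or TGACC where it lies on the other strand) in capitals.
Otog, chr7:46240737-46240986, plus strand: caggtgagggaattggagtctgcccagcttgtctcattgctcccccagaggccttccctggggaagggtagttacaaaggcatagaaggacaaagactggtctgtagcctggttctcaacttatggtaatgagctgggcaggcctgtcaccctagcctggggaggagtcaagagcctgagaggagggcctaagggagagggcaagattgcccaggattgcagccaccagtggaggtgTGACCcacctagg
Tecta, chr9:42401691-42401940, minus strand: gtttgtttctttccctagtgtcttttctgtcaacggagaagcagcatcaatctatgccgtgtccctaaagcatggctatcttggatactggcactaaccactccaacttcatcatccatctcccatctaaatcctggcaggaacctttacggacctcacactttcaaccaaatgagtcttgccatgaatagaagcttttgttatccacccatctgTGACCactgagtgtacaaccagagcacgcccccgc
Sparc, chr11:55420081-55420330, minus strand: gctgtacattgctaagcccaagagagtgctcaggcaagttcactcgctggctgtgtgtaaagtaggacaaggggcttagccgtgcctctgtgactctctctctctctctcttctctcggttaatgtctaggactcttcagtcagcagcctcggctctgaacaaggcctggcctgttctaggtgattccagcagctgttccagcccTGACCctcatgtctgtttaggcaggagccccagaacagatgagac
Tectb, chr19:55180476-55180725, plus strand: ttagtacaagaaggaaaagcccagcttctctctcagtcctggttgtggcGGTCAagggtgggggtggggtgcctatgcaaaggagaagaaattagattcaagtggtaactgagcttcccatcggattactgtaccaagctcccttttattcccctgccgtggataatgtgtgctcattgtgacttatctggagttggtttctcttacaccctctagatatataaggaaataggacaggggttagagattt
Counted from the start site, the first base of the element lay at -13 for *Otog*, -35 for *Tecta*, -45 for *Sparc* and -201 for *Tectb*. The windows of *Otol1*, *Otoa* and the other start site of *Tecta* did not hold these letters. A match of 5 letters is a description of the sequence, and binding was not measured.

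The libraries held 1123053 to 2081747 counts. The OVX + E2 libraries held the fewest, 1123053 to 1507667, and those of the other groups 1435156 to 2081747. Levels are given as CPM, the counts of a gene scaled to a library of 1000000 counts. The kit reads the 3′ end of a transcript, so that CPM was not divided by length when genes were compared. A gene with 3 counts, the fewest taken as detected, had 1.44 CPM in the largest library and 2.67 CPM in the smallest, which bounds what a count of 0 allows. The markers of hair cells (9 of 10 in the tables) summed to 512 to 1709 CPM in a library, and those of supporting cells (9 of 9) to 1385 to 3468 CPM. Of the 6 markers of the cochlear duct, *Slc26a5*, prestin of the outer hair cells, was at 0 counts in all 20 libraries, whereas *Otos*, which fibrocytes of the inner ear make, had 1410 to 4589 CPM. The others had means of 46.2 CPM (*Kcnj10*, 3 counts or more in 19 libraries), 24.05 CPM (*Emilin2*, 14), 13.3 CPM (*Slc17a8*, 14) and 4.42 CPM (*Epyc*, 5), and their part in the levels below was not tested. Melanocyte markers (328 to 1621 CPM) and hemoglobin genes (363 to 3837 CPM) were also counted. Of the 14 marker lists (77 to 80 entries tested), 0 genes passed an adjusted p of 0.05 in any of the 6 comparisons of the groups (edgeR, smallest adjusted p = 0.0747), and 5 to 11 had an unadjusted p under 0.05, beside 12.1% to 14.2% of all genes. The list medians differed more: the median log2 fold change over the comparisons ran from -3.39 to 3.32 for skeletal muscle and from -0.99 to 1.46 for neurons, so that an even makeup of the samples is not shown. Both lists hold genes of low count. *Acta1*, *Ckm*, *Myh4* and *Tnnt3* of muscle had 0 counts in 7 to 13 libraries, and *Snap25*, *Tubb3* and *Calca* of neurons in 8 to 14. The smallest adjusted p was that of a Schwann cell marker, in OVX + E2 against OVX + RAL. The Schwann cell markers summed to 3663 CPM on average in OVX + E2 and to 2325 CPM in OVX + RAL. In tissue RNA, fewer cells of a type and less RNA per cell cannot be told apart.

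The 3 members with the most RNA were *Otog*, *Sparcl1* and *Sparc*, which ranked 22, 41 and 47 among the 15803 genes with a count. Over the 20 libraries their means were 2508 ± 794, 1726 ± 351 and 1502 ± 284 CPM (SD). *Otoa* (191 ± 69.4 CPM), *Otol1* (157 ± 73.5 CPM) and *Tecta* (120 ± 55.5 CPM) followed, then *Otogl* (53.6 ± 34.1 CPM), *Tectb* (44.1 ± 33.2 CPM), *Ceacam16* (21.3 ± 31.5 CPM) and *Oc90* (4.88 ± 8.13 CPM). The 10 genes together took 0.494% to 0.808% of the counts of a library, and *Otog*, *Sparc* and *Sparcl1* took 82.9% to 93.9% of that share. The order had 1 clear break: *Sparc* was above *Otoa* in 20 of 20 libraries and the ranges of these genes did not overlap. All other neighbours in the order overlapped in range. *Otog* was above *Sparcl1* in 16 of 20 libraries, *Sparcl1* above *Sparc* in 15, *Otoa* above *Otol1* in 12, *Otol1* above *Tecta* in 13, *Tecta* above *Otogl* in 17, *Otogl* above *Tectb* in 12 and *Tectb* above *Ceacam16* in 15. *Ceacam16* was above *Oc90* in 9 libraries, below it in 5 and equal to it in 6, so that the last places in the order are not separated. By the mean, otogelin of the gel was the highest of the 10.

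Of the genes of the crystal core, *Otol1* was counted in all 20 libraries (42 to 440 counts). Its level was 98.9, 122, 261, 219 and 233 CPM in the sham + v libraries 1 to 5, and 232, 102, 56.7, 139 and 29.3 CPM in the OVX + v libraries 6 to 10. It was 271, 190, 135, 154 and 91.2 CPM in the OVX + E2 libraries 11 to 15, and 200, 206, 236, 52.5 and 114 CPM in the OVX + RAL libraries 16 to 20. The OVX + v group had the lowest mean, 112 ± 79.4 CPM, beside 187 ± 71.9 CPM in sham + v, 168 ± 67.4 CPM in OVX + E2 and 162 ± 76.0 CPM in OVX + RAL (mean ± SD, n = 5), but its replicate 6 lay above 4 of 5 libraries of the OVX + E2 group and the groups overlapped. Over OVX + v, the log2 fold change was 0.74 (SE 0.43) for sham + v, 0.59 (SE 0.54) for OVX + E2 and 0.53 (SE 0.42) for OVX + RAL. Without OVX + v replicate 10 these were 0.50, 0.35 and 0.29, and without OVX + v replicate 6 they were 1.19, 1.04 and 0.98. The adjusted p by edgeR's quasi-likelihood test was 0.631, 0.996 and 0.989, and the exact permutation p on log2(CPM + 1) was 0.175, 0.198 and 0.341 (two-sided, over every split into 5 and 5 libraries). These 3 comparisons share the 5 OVX + v libraries and are not independent of each other. Between the other groups the log2 fold changes of *Otol1* lay between -0.21 and 0.059.

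*Oc90* had the fewest counts of the 10 genes. It had 173 counts in all, 0 counts in 12 of 20 libraries and 3 counts or more in 7. In the sham + v group it had 0, 0, 12.4, 0 and 3.98 CPM, and in the OVX + v group 21.2, 0, 0, 22.3 and 0 CPM. In the OVX + E2 group it had 0, 0, 10.4, 0 and 4.21 CPM, and in the OVX + RAL group 0, 1.08, 0, 0 and 22.1 CPM. Each group thus had 2 libraries with any count, and the median of every group was 0. The 95% intervals of its log2 fold changes over OVX + v reached from -7.03 to 3.98, and the spread between libraries was 5.10 times that of counting, so that no direction is given.

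The otogelins were far apart in level. *Otog*, with 2040 to 7810 counts in a library, had 2782 ± 1096 CPM in sham + v, 2315 ± 638 CPM in OVX + v, 2464 ± 520 CPM in OVX + E2 and 2472 ± 984 CPM in OVX + RAL (mean ± SD, n = 5). Its lowest library was OVX + RAL replicate 16 (1049 CPM) and its highest sham + v replicate 2 (4099 CPM), and the sham + v group alone ran from 1305 to 4099 CPM. Over OVX + v, the log2 fold change was 0.26 (SE 0.15, adjusted p = 0.601, edgeR) for sham + v, 0.090 (SE 0.14) for OVX + E2, where TMM scaling gave -0.020, and 0.094 (SE 0.18) for OVX + RAL. The first of these was 0.083 without sham + v replicate 2 (unadjusted p = 0.631, edgeR) and 0.44 without sham + v replicate 1 (unadjusted p = 0.00106, adjusted p = 0.463). Over the 6 comparisons the 95% intervals lay within -0.53 and 0.56, that is, between 0.694-fold and 1.48-fold. These limits depend on the fit: DESeq2 gave 0.536-fold to 1.82-fold, the robust edgeR fit 0.525-fold to 1.60-fold, and limma on log2(CPM + 1) 0.369-fold to 2.60-fold. For sham + v over OVX + v the unadjusted p of *Otog* was 0.0833 with edgeR, 0.411 with DESeq2 and 0.709 with limma on log2(CPM + 1). *Otogl* had 59.2 ± 42.6, 55.3 ± 35.7, 50.8 ± 24.8 and 49.1 ± 41.7 CPM, with the groups in the same order. Its log2 fold changes lay between -0.27 and 0.099, with standard errors of 0.74 to 1.09. Within a library *Otog* exceeded *Otogl* by 3.91 to 8.14 on the log2 scale (median 5.34).

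*Otoa* was the member with the lowest permutation p. Its level was 235, 152, 179, 175 and 129 CPM in the sham + v group and 216, 206, 262, 316 and 188 CPM in the OVX + v group. For OVX + E2 it was 284, 197, 160, 134 and 211 CPM, and 115, 49.0, 294, 231 and 86.0 CPM in the OVX + RAL group. The OVX + v group had the highest mean (238 ± 51.8 CPM), followed by the OVX + E2 (197 ± 57.0), sham + v (174 ± 39.4) and OVX + RAL groups (155 ± 103), and 1 sham + v library, 1 OVX + E2 library and 2 OVX + RAL libraries lay above the median of the OVX + v group, 216 CPM. Over OVX + v, its log2 fold change was -0.45 (SE 0.38) for sham + v, -0.27 (SE 0.43) for OVX + E2 and -0.62 (SE 0.37) for OVX + RAL. The *Otoa* value for OVX + E2 was -0.14 without OVX + v replicate 9 and -0.44 without OVX + E2 replicate 11. That for OVX + RAL was -0.39 without OVX + RAL replicate 17 and -0.98 without OVX + RAL replicate 18 (unadjusted p = 0.0134, adjusted p = 0.533, edgeR). The exact permutation p was 0.0635, 0.246 and 0.127, and 1 for all of them after adjustment over all genes tested. The smallest p that the test allows is 0.00794. The adjusted p by edgeR was 1.00 in the sham + v and OVX + E2 comparisons and 0.643 in the OVX + RAL comparison. The supporting cell markers, 9 of 9 counted, had their highest mean sum in OVX + v as well: the summed level was 2316 to 3468 CPM in the OVX + v libraries, beside 1385 to 2588 CPM in sham + v, 1395 to 3321 CPM in OVX + E2 and 1860 to 3194 CPM in OVX + RAL. The median log2 fold change of these markers over OVX + v was -0.55, -0.33 and -0.62, with 8, 6 and 8 of 9 lower, and their part in the levels of *Otoa* was not tested. The spread of *Otoa* in the OVX + RAL group, where the libraries ran from 49.0 to 294 CPM, was the widest.

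The tectorins were counted in most libraries, with single libraries near 0. *Tecta* had 192, 119, 188, 90.6 and 91.5 CPM in the sham + v group and 86.0, 120, 129, 127 and 123 CPM in the OVX + v group. For OVX + E2 it was 214, 158, 80.2, 1.78 and 135 CPM, and 18.5, 67.9, 174, 113 and 180 CPM in the OVX + RAL group. The group means were close, 111 to 136 CPM, whereas the SD was 17.6 CPM in the OVX + v group and 50.5 to 80.6 CPM in the other groups. OVX + E2 replicate 14 held 2 counts of *Tecta* and the other libraries of its group 100 to 322. *Tectb* had 53.6, 54.1, 30.8, 0.559 and 86.9 CPM in the sham + v group and 75.4, 44.5, 31.2, 16.8 and 5.57 CPM in the OVX + v group. For OVX + E2 it was 105, 93.7, 0, 0 and 85.6 CPM, and in the OVX + RAL group 23.7, 17.2, 54.6, 38.3 and 63.4 CPM. The OVX + E2 group therefore held both the highest level of *Tectb* and the only libraries at 0. The log2 fold changes over OVX + v lay between -0.078 and 0.22 for *Tecta* (SE 0.46 to 0.60) and between 0.18 and 0.71 for *Tectb* (SE 0.93 to 1.15). Over the alternative fits, the value of *Tecta* for sham + v ran from 0.065 to 0.34. That of *Tectb* ran from -0.20 to 0.88 for sham + v and from -2.04 to 1.21 for OVX + E2. For *Tecta* in the OVX + E2 group, the sign was positive with column totals (0.012) and negative with TMM scaling (-0.096), and on the scale of log2(CPM + 1) the difference of *Tectb* in this group was -0.78 beside a fold change of 0.71, so that no direction is given.

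*Ceacam16* was either counted well or hardly at all. It had 47 to 161 counts in 8 libraries, 1 or 3 counts in 2 libraries and 0 counts in 10. The levels were 34.6, 0, 0, 57.6 and 0 CPM in the sham + v group, 39.2, 1.88, 28.3, 0 and 0 CPM in the OVX + v group. They were 52.4, 0, 104, 0 and 0 CPM for OVX + E2 and 82.8, 25.3, 0, 0 and 0.480 CPM for OVX + RAL. In each group 2 libraries thus carried nearly all of its counts. Its libraries were not those of *Oc90*: with 3 counts as the limit, 2 libraries held both genes, 7 *Ceacam16* only, 5 *Oc90* only and 6 neither. The log2 fold changes over OVX + v were 0.41 for sham + v, 1.17 for OVX + E2 and 0.64 for OVX + RAL, with standard errors of 1.58 to 1.83. With limma on log2(CPM + 0.1) they were -0.69, -0.40 and -0.17, and leaving out 1 library gave values down to -0.68, -0.082 and -1.10, so that no direction is given. *Ceacam16* overlaps the gene *Gm19345* on the other strand, which had 1 count in all libraries together.

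The transcripts of the SPARC proteins had the narrowest spread of the 10. *Sparc* had 1504 ± 151 CPM in sham + v, 1501 ± 256 CPM in OVX + v, 1357 ± 435 CPM in OVX + E2 and 1644 ± 230 CPM in OVX + RAL (mean ± SD, n = 5). *Sparcl1* had 1657 ± 305, 1756 ± 403, 1646 ± 330 and 1846 ± 433 CPM in the same order. Over OVX + v, the log2 fold change of *Sparc* was 0.0029 (SE 0.18) for sham + v, with -0.042 under TMM scaling, -0.15 (SE 0.18) for OVX + E2 and 0.13 (SE 0.19) for OVX + RAL. That of *Sparcl1* was -0.084, -0.093 and 0.072 (SE 0.17 to 0.19). Over the alternative fits, the value of *Sparcl1* for OVX + E2 ran from -0.21 to -0.011. That of *Sparc* for OVX + RAL ran from 0.050 to 0.20. Over the 6 comparisons the 95% intervals lay between 0.629-fold and 1.43-fold for *Sparc* and between 0.690-fold and 1.45-fold for *Sparcl1*, whereas limma on log2(CPM + 1) gave 0.335-fold to 2.18-fold and 0.394-fold to 2.32-fold. The largest difference, that of *Sparc* from OVX + RAL to OVX + E2, was -0.28 (SE 0.20, adjusted p = 0.786, edgeR). It was -0.42 with TMM scaling (unadjusted p = 0.0380, adjusted p = 0.327, edgeR) and -0.10 without OVX + E2 replicate 11. In OVX + E2 replicate 11 the pair came apart: *Sparc* had 665 CPM, its lowest level of the 20 libraries, and *Sparcl1* 2081 CPM, a ratio of -1.65 on the log2 scale, whereas the ratio lay between -0.52 and 0.41 in the libraries of the other 3 groups.

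In the comparisons with OVX + v, 0 of the 10 genes passed an adjusted p of 0.05 in edgeR (adjusted over all genes tested by the Benjamini-Hochberg method). For the sham + v group this stood against 0.0145% of 13825 genes, for the OVX + E2 group against 0.0584% of 13695 and for the OVX + RAL group against 0.0286% of 14002. When OVX + E2 was compared with OVX + RAL, OVX + E2 with sham + v, and OVX + RAL with sham + v, 0 of 10 passed as well, with backgrounds of 0.0727%, 0.0222% and 0.0648%. At an unadjusted p under 0.05 there were 0 of 10 in each of the 6 comparisons, beside 12.5%, 13.9%, 12.1%, 14.1%, 14.2% and 13% of all genes in the same order. This share depended on the filter. With filterByExpr, which leaves out more genes of low count, it was 1.39% to 1.83% (edgeR), beside 0 of 8 members. DESeq2 and limma called 0 of 10 as well, also without adjustment, where 4.95% to 5.64% of all genes (DESeq2) and 4.29% to 7.07% (limma, both pseudocounts) had a p under 0.05, so that 0 of 10 is near the background there too. The groups overlapped in CPM for all 60 pairs of a gene and a comparison, where 0.499%, 0.832%, 0.578%, 0.909%, 0.607% and 0.691% of all genes tested did not overlap. Since so few of all genes were called, 0 of 10 is near the background share. The smallest adjusted p among the 60 tests was 0.601. The median log2 fold change of the 10 genes over OVX + v was 0.16 for sham + v, -0.041 for OVX + E2 and 0.083 for OVX + RAL, beside -0.023, -0.060 and -0.033 for all genes tested.

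**Figure D1:**
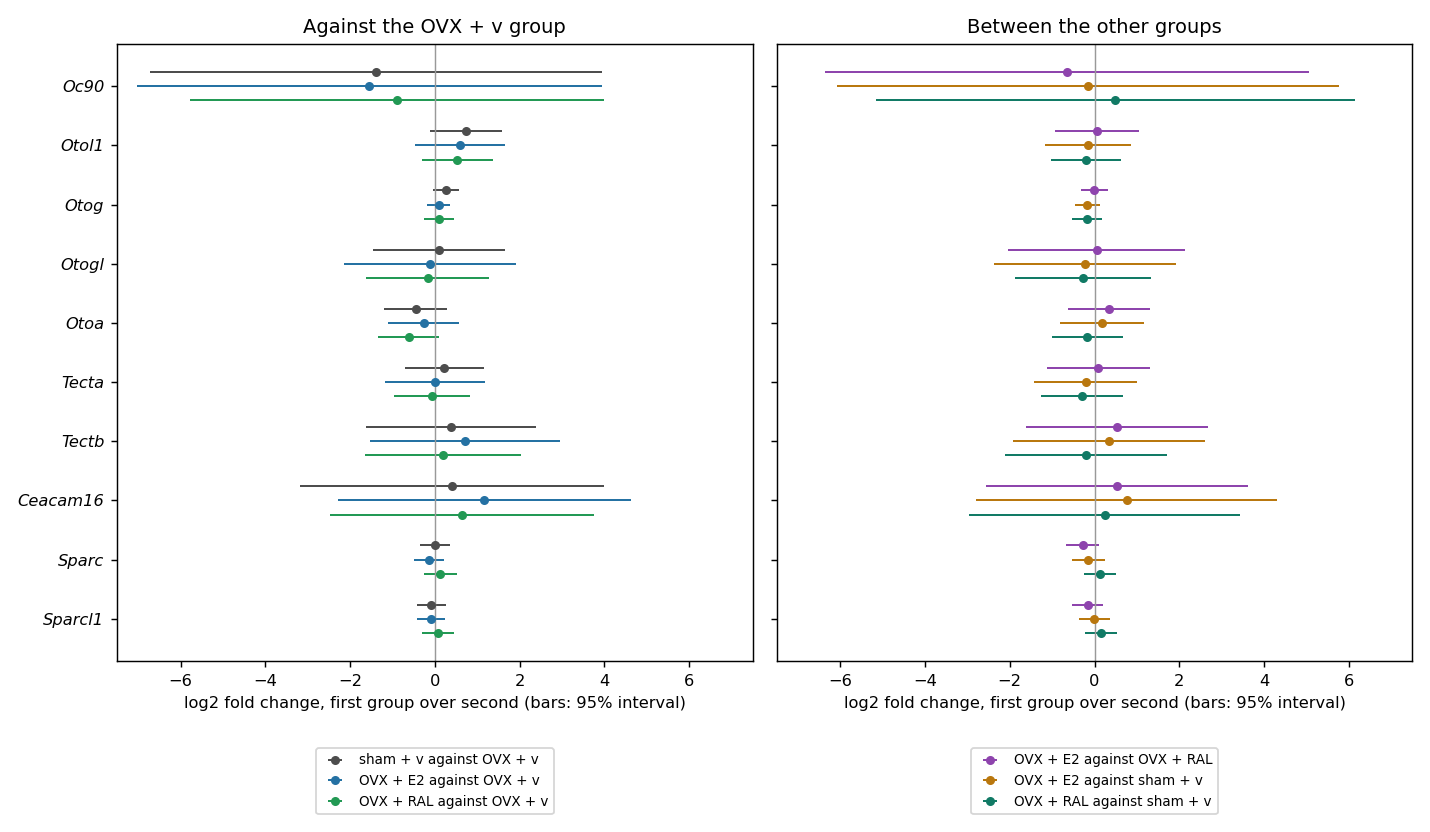
Log2 fold changes of the 10 genes (y axis) from edgeR, with points for the estimates and bars for the 95% intervals (x axis, first named group over second), for the comparisons with the OVX + v group (left) and between the other groups (right). All 60 intervals include 0, and they are narrow for *Otog*, *Sparc* and *Sparcl1* and widest for *Oc90* and *Ceacam16*.

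How far these libraries could resolve a difference depended on the gene. Within groups the coefficient of variation of the level was 19.1% for *Sparc*, 21.5% for *Sparcl1* and 33.6% for *Otog*. It was 35.2% for *Otoa*, 47.0% for *Otol1*, 49.4% for *Tecta*, 68.8% for *Otogl* and 79.4% for *Tectb*. It reached 157% for *Ceacam16* and 174% for *Oc90*. The counting of reads alone would give 1.55% for *Otog*, 1.99% for *Sparc* and 34.0% for *Oc90*, so that the measured spread was 5.10 times (*Oc90*) to 21.8 times (*Otog*) that of counting. Reads were counted without molecular identifiers, from 1 ng of RNA a library, and the part of the amplification in this spread was not tested.

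**Figure D2:**
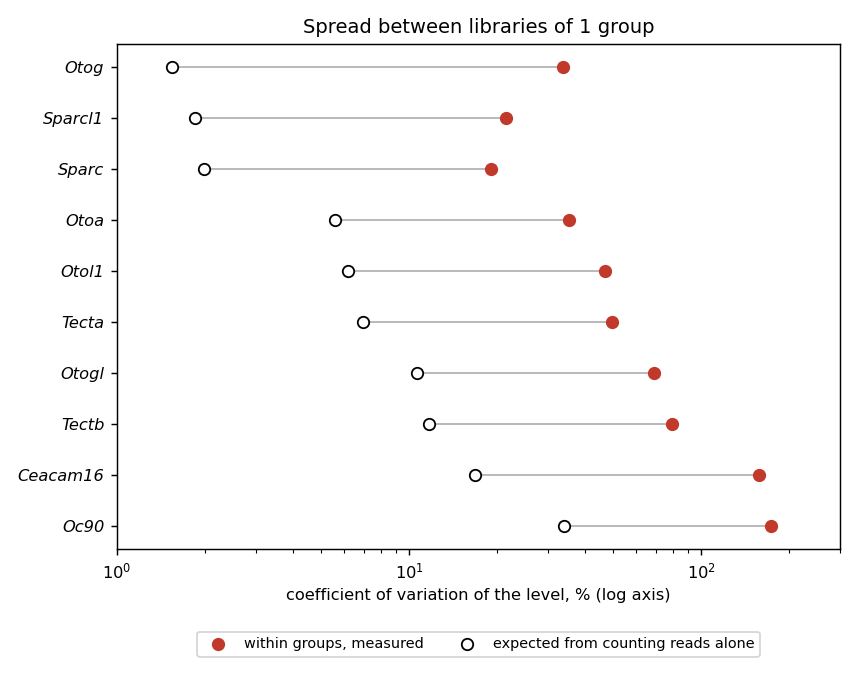
Coefficient of variation of the level of each gene in percent (x axis, log scale), for the 10 genes ordered by mean level (y axis). Filled points give the spread between libraries within groups and open points the spread that counting reads alone would give. The measured spread exceeds that of counting for every gene, from 19.1% for *Sparc* to 174% for *Oc90*.

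The members were compared with each other over the 20 libraries, which share the depth of each library, for the 8 genes with at least 10 counts in 15 or more libraries (all but *Oc90* and *Ceacam16*). Over the 28 pairs Spearman's rho of the levels ran from -0.27 to 0.54 with a median of 0.19. The pairs *Tecta* with *Tectb* and *Tecta* with *Otoa* had the highest values, 0.54 each, and 2 pairs were above 0.5. *Otog* and *Otogl*, which encode related proteins, had a rho of 0.080, and *Otol1* and *Otog* one of -0.023. Among the 5909 genes with at least 10 counts in 15 libraries or more, the genes most like each member had higher values than any other member did. They were *Gm2296*, *Pfdn6* and *Cntn1* for *Otol1* (rho 0.76 to 0.66), *Trip12* and *D430041D05Rik* for *Otog* (0.78 and 0.76), *Tnfaip1*, *Spa17* and *Id4* for *Otogl* (0.84 to 0.73), and *Otud6b*, *Ptprd* and *Hspa9* for *Otoa* (0.81 to 0.68). They were *Galk1*, *Chkb* and *Nono* for *Tecta* (0.71 to 0.70), *Hspa12a*, *Zfp362* and *Tada2a* for *Tectb* (0.77 to 0.74), *Slc7a1*, *Gigyf2* and *Mfsd2a* for *Sparc* (0.76 to 0.69), and *Uqcrc1*, *Slc6a8* and *Slc20a2* for *Sparcl1* (0.80 to 0.73). These are the highest values of a search over many genes in 20 libraries and are given as a description.

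**Figure D3:**
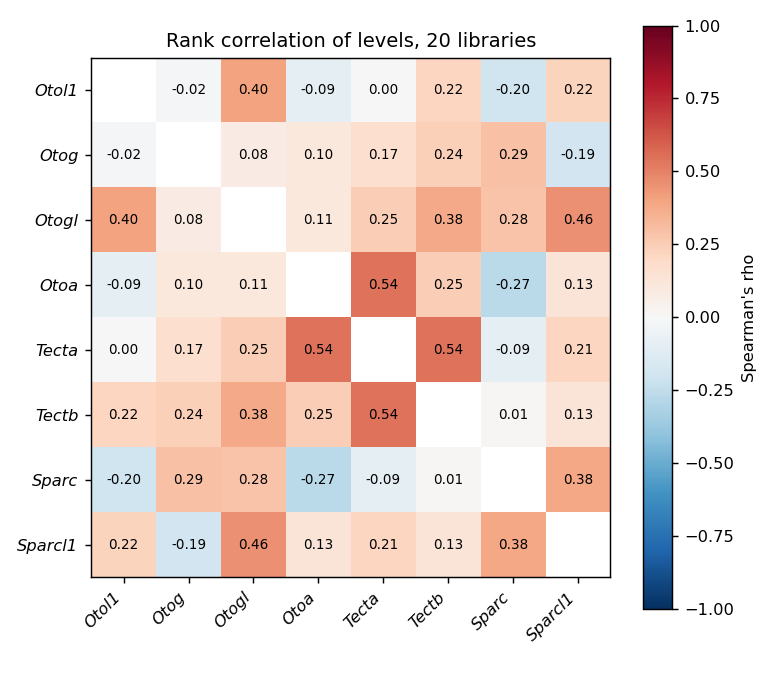
Spearman's rho between the levels of 8 genes (both axes) over the 20 libraries, printed in each square and coloured from blue (-1) to red (1). The values run from -0.27 to 0.54, and the highest stand where *Tecta* meets *Tectb* and *Otoa*.

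Other genes of the same structures were listed by function. The list for otoconia formation and mineral proteins holds 13 genes, among them the NADPH oxidase complex of otoconia formation (*Nox3*, *Noxo1*, *Cyba*) and the proton channel *Otop1*. In each comparison 9 to 11 of them were tested, 0 passed an adjusted p of 0.05 (edgeR, smallest adjusted p = 0.347) and 1 to 4 had an unadjusted p under 0.05, beside 12.1% to 14.2% of all genes. The count was 1 of 9 for OVX + RAL against OVX + v and 4 of 10 for OVX + RAL against sham + v. The 4 were *Spp1*, *Atp2b2*, *Dmp1* and *Pkhd1l1*, of which the last 2 had counts in only 2 of 20 libraries each and 0 counts in one of the groups compared. *Atp2b2*, counted in all 20 libraries, had means of 180 CPM in sham + v, 151 in OVX + v, 73.4 in OVX + E2 and 84.4 in OVX + RAL. Its unadjusted p was 0.0417 (OVX + E2) and 0.0221 (OVX + RAL) against sham + v, and 0.0944 and 0.0588 against OVX + v (edgeR, adjusted p 0.347 to 0.565). These values of *Atp2b2* were singled out after they were seen. The list's median log2 fold change over OVX + v was -0.13 for sham + v, 0.34 for OVX + E2 and 0.19 for OVX + RAL. *Spp1* (osteopontin, 556 CPM on average), *Atp2b2* (the calcium pump of hair bundles, 122 CPM), *Cyba* (101 CPM) and *Slc26a4* (pendrin, 49.1 CPM) had the highest levels. *Nox3*, on which the formation of otoconia depends, had 21.7 CPM on average and 0 counts in 7 libraries, *Otop1* 12.4 CPM and 0 counts in 10 libraries, and *Noxa1* and *Ahsg* 0 counts in all 20.

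*Spp1* had the smallest unadjusted p of this list, in OVX + RAL against sham + v (0.00167), and was singled out after its values were seen. Its level was 398 ± 190 CPM in sham + v, 494 ± 192 CPM in OVX + v, 590 ± 185 CPM in OVX + E2 and 743 ± 448 CPM in OVX + RAL (mean ± SD, n = 5). The log2 fold change of OVX + RAL over sham + v was 0.90 (SE 0.28), and it did not pass the adjustment (adjusted p = 0.358, edgeR). Single libraries decided this value. OVX + RAL replicate 16 had 1515 CPM and the others of its group 348 to 664 CPM, and without it the group mean was 550.4 CPM, below that of OVX + E2, and the log2 fold change 0.47 (SE 0.29, adjusted p = 0.704). Sham + v replicate 1 had 735 CPM and the others 270.1 to 330 CPM, and without it the log2 fold change was 1.25 (SE 0.29, adjusted p = 0.0207).

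Of 13 genes of acellular membranes, the cupula and their attachment, 11 or 12 were tested, 0 passed in any comparison (edgeR, smallest adjusted p = 0.358) and 0 to 2 had an unadjusted p under 0.05, beside the 12.1% to 14.2% of all genes, so that neither count stands out from the background. The median log2 fold change over OVX + v was -0.082 for sham + v, -0.20 for OVX + E2 and -0.28 for OVX + RAL. The collagen genes *Col9a2* (299 CPM), *Col11a2* (214 CPM) and *Col11a1* (94.8 CPM) and the transglutaminase gene *Tgm2* (84.5 CPM) had the highest levels, and *Umod* had 0 counts in all libraries. Of 6 relatives of SPARC all were tested, 0 passed (edgeR, smallest adjusted p = 0.777) and 0 had an unadjusted p under 0.05, where the same background holds, with medians of -0.18, -0.23 and -0.16. *Spock2* (205 CPM), *Smoc2* (196 CPM), *Spock1* (61.8 CPM) and *Smoc1* (60.2 CPM) led this list, each far below *Sparc* and *Sparcl1*.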

How the data were processed

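RNA of the mouse utricle was sequenced in 20 libraries, 4 groups of 5, named by the library numbers 1 to 20 of the labels. The authors trimmed the reads, mapped them to GRCm39.105 and counted them per gene in CLC Genomics Workbench. The version, the use of strand and the treatment of reads matching more than 1 gene are not given in the sources used here. The deposited total counts are raw counts of reads without normalization. The deposited CPM, TPM and RPKM columns and the authors' fold changes and p-values were not used. One deposited file holds 3 tables, of which the first was used, and 0 columns belong to samples outside the series. Of 40 pairs of replicates, 0 had identical counts. The labels give no batch.

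CPM was computed from the column totals (1123053 to 2081747 counts). Each pair of groups was fitted alone with edgeR 4.0.16 (glmQLFit and glmQLFTest, R 4.3.3), with the column total as library size and no TMM factor, for the genes whose counts summed to 10 or more. P-values were adjusted over all of these genes (Benjamini-Hochberg, threshold 0.05). The standard error is the size of the log2 fold change over the square root of F, and intervals are at 95% (normal for DESeq2, moderated for limma). Exact permutation tests, two-sided, used log2(CPM + 1) over every split into 5 and 5 libraries. Alternatives were TMM factors, DESeq2 1.42.0, no filter, filterByExpr, limma 3.58.1 on log2(CPM + 1) and log2(CPM + 0.1), robust glmQLFit, 1 fit of all 4 groups, and fits without each library in turn. Floors of 3 counts cover counting error only. The fits were also run on simulated data, and the outcome is not reported here. Tables and figures were made with Python 3.11.15, pandas 2.3.3, numpy 2.4.6, scipy 1.17.1 and matplotlib 3.10.9.

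The members, the 3 related lists and the marker lists were chosen with earlier results of these data known. All members are named. Of a related list, genes past the threshold are named, otherwise the 4 with the highest mean level. The genes at low level were named with them because of their known part in otoconia, and this choice was made after their values were seen. For each well counted member the 3 genes with the highest Spearman's rho are named, except 1 that is not reported here. Promoter windows came from a RefSeq table of GRCm38.p6.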

Additional observations from a re-analysis of the deposited data

Results flagged for a closer look

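In 3 of 40 groups of 5 libraries, 1 library stood apart from the other 4 by Dixon's test (critical value 0.71), and chance gives about 1 in 20, that is, 2 of 40. *Oc90* had 22.1 CPM (46 counts) in OVX + RAL replicate 20 and 0 to 1.08 CPM in the other libraries of the group. *Otogl* had 8.02 CPM (10 counts) in OVX + E2 replicate 13 and 51.6 to 68.0 CPM in the others. *Tecta* had 86.0 CPM (138 counts) in OVX + v replicate 6 and 120 to 129 CPM in the others. No call rests on these libraries.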

How the results depend on the processing

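Of the 10 genes, 0 were called in the 6 comparisons under the alternatives run (filterByExpr left out *Oc90* and *Ceacam16* and tested 8), and at most 2 had an unadjusted p under 0.05 (edgeR, sham + v against OVX + v without sham + v replicate 1). The smallest adjusted p of a member under any alternative was 0.327. The count of all genes called moved more: it was 2, 8, 4, 10, 3 and 9 in the comparisons in the order of the report, 1, 35, 4, 42, 21 and 15 with DESeq2, 0 to 1 with filterByExpr, and 0 to 36 over the limma scales. The robust edgeR fit gave 0, 4, 0, 6, 0 and 3 in the same order. Leaving out 1 library gave 1 to 10, 6 to 17, 3 to 11, 8 to 16, 1 to 5 and 5 to 16. All 40 group means moved by less than 1 SD under TMM scaling, which shifted the median log2 fold change of all genes from -0.060 to -0.17 (OVX + E2 against OVX + v) and from -0.013 to -0.16 (OVX + E2 against OVX + RAL). No paired analysis was possible because the groups share no replicate numbers. The standard error of *Otog* was 0.14 to 0.18 over the 6 comparisons with edgeR, 0.20 to 0.38 with DESeq2 and 0.51 to 0.60 with limma on log2(CPM + 1). *Oc90* and *Ceacam16* had 0 counts in 12 and 10 libraries and a spread of 5.10 and 9.36 times that of counting, and a count of 0 allows up to 1.44 to 2.67 CPM.

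The sign of an uncalled log2 fold change turned in the following cases, and the cause was not tested. With limma on log2(CPM + 1) it was -0.00057 for *Tectb* and -0.14 for *Ceacam16* (sham + v against OVX + v) and -0.87 for *Tecta* and -0.78 for *Tectb* (OVX + E2 against OVX + v). It was -0.012 for *Ceacam16* (OVX + RAL against OVX + v) and 0.062 for *Oc90*, 0.088 for *Otog*, -0.44 for *Tecta* and -1.24 for *Tectb* (OVX + E2 against OVX + RAL). It was -0.78 for *Tectb* (OVX + E2 against sham + v) and -0.096 for *Oc90* and 0.45 for *Tectb* (OVX + RAL against sham + v). With limma on log2(CPM + 0.1) it was -0.20 for *Tectb* and -0.69 for *Ceacam16* (sham + v against OVX + v) and -0.98 for *Tecta*, -2.04 for *Tectb* and -0.40 for *Ceacam16* (OVX + E2 against OVX + v). It was -0.17 for *Ceacam16* (OVX + RAL against OVX + v) and 0.16 for *Oc90*, 0.088 for *Otog*, -0.54 for *Tecta*, -2.53 for *Tectb* and -0.23 for *Ceacam16* (OVX + E2 against OVX + RAL). It was -1.85 for *Tectb* (OVX + E2 against sham + v) and -0.19 for *Oc90* and 0.68 for *Tectb* (OVX + RAL against sham + v). With TMM factors it was -0.042 for *Sparc* (sham + v against OVX + v) and -0.020 for *Otog* and -0.096 for *Tecta* (OVX + E2 against OVX + v). It was -0.11 for *Otol1*, -0.090 for *Otogl* and -0.037 for *Tecta* (OVX + E2 against OVX + RAL). With DESeq2 it was -0.0037 for *Sparc* (sham + v against OVX + v) and -0.00062 for *Tecta* (OVX + E2 against OVX + v). In the permutation test with a pseudocount of 0.1 it was -0.40 for *Ceacam16* (OVX + E2 against OVX + v) and -0.23 for *Ceacam16* (OVX + E2 against OVX + RAL). 

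With 1 library left out in turn, the log2 fold changes below took both signs. That of *Otogl* ran from -0.21 to 0.44 (sham + v against OVX + v), -0.38 to 0.21 (OVX + E2 against OVX + v), -0.78 to 0.16 (OVX + RAL against OVX + v), -0.21 to 0.66 (OVX + E2 against OVX + RAL), -0.46 to 0.091 (OVX + E2 against sham + v) and -0.88 to 0.041 (OVX + RAL against sham + v). That of *Ceacam16* ran from -0.68 to 1.28 (sham + v against OVX + v), -0.082 to 2.04 (OVX + E2 against OVX + v), -1.10 to 1.51 (OVX + RAL against OVX + v), -0.72 to 2.27 (OVX + E2 against OVX + RAL), -0.49 to 1.84 (OVX + E2 against sham + v) and -1.51 to 1.32 (OVX + RAL against sham + v). That of *Sparc* ran from -0.060 to 0.076 (sham + v against OVX + v), -0.25 to 0.027 (OVX + E2 against OVX + v) and -0.25 to 0.024 (OVX + E2 against sham + v). That of *Sparcl1* ran from -0.19 to 0.017 (sham + v against OVX + v), -0.057 to 0.16 (OVX + RAL against OVX + v) and -0.11 to 0.070 (OVX + E2 against sham + v). That of *Otog* ran from -0.031 to 0.25 (OVX + E2 against OVX + v), -0.070 to 0.29 (OVX + RAL against OVX + v), -0.20 to 0.16 (OVX + E2 against OVX + RAL), -0.36 to 0.0065 (OVX + E2 against sham + v) and -0.35 to 0.023 (OVX + RAL against sham + v). That of *Tecta* ran from -0.32 to 0.33 (OVX + E2 against OVX + v), -0.32 to 0.20 (OVX + RAL against OVX + v), -0.24 to 0.41 (OVX + E2 against OVX + RAL) and -0.54 to 0.11 (OVX + E2 against sham + v). That of *Tectb* ran from -0.089 to 0.68 (OVX + RAL against OVX + v), -0.011 to 0.71 (OVX + E2 against sham + v) and -0.51 to 0.18 (OVX + RAL against sham + v). That of *Oc90* ran from -2.06 to 3.10 (OVX + E2 against OVX + RAL), -1.57 to 1.49 (OVX + E2 against sham + v) and -3.31 to 2.16 (OVX + RAL against sham + v). That of *Otol1* ran from -0.18 to 0.24 (OVX + E2 against OVX + RAL), -0.39 to 0.0068 (OVX + E2 against sham + v) and -0.38 to 0.017 (OVX + RAL against sham + v). That of *Otoa* ran from -0.53 to 0.060 (OVX + RAL against sham + v).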
